A study of Mus musculus with 8 samples.

Results

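Across 24421 genes counted by RNA-seq in leukemic mouse cells, 43 genes had a clearly lower level in both libraries from Ikzf2 KO cells than in both libraries from Ikzf2 WT cells. The genes were selected by their own levels in the 4 libraries, in CPM, a count scaled to 1000000 gene counts of its library: the lower WT value had to be at least 5 CPM and at least 3 times the higher KO value, and the WT values had to lie within 4-fold of each other. Of 9790 genes with a lower WT value of at least 5 CPM, 47 met these limits, which is 0.48% (0.192% of all genes in the files), and 4 of them (Ikzf2, Tespa1, Inppl1 and Chd3) are left out here. Because the limits used the same 4 libraries, the differences below are descriptions, and no p-value is given for a selected gene.

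Marrow from C57BL/6 mice had been transformed with MLL-AF9, an oncogenic fusion of acute leukemia, and its cells were sorted for a high level of the receptor c-KIT after thawing of frozen marrow. The 2 WT libraries came from Ikzf2 f/f cells, in which the gene is flanked for deletion but intact, and the 2 KO libraries from Ikzf2 Δ/Δ cells, in which it was deleted. The labels give neither the Cre driver nor the deleted exons, and leave unsaid whether each replicate had its own mouse. The KO libraries differ in their sex-linked genes, given below, so the pair does not share 1 source of cells. For the WT libraries a shared source is neither stated nor tested. They differed widely in some genes, such as Gprasp2 at 127 CPM in replicate 1 and 0.214 CPM in replicate 2. Chromatin accessibility was named for 4 further samples, which were not analysed here.

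The product of Ikzf2 is Helios, a DNA-binding relative of Ikaros. Factors of this family bind short sites with a GGGAA core, and depending on partners such as the NuRD complex they can silence or sustain the genes they bind. In blood, Helios is best known from regulatory T cells and from early progenitors, and in MLL-driven leukemia it has been studied as a factor of leukemic stem cells.

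The gene counts of the libraries ranged from 16006081 to 19286090, so 3 counts correspond to 0.156 to 0.187 CPM. In this order of WT replicates 1 and 2 against KO replicates 1 and 2, used throughout, Ikzf2 itself had 294 and 273 against 10.996 and 25.0 CPM, and the sort gene Kit had 223 and 332 CPM for WT against 239 and 356 CPM for KO. KO replicate 1 stood apart in its sex-linked genes, with Xist at 841 CPM against 0.333 to 0.622 CPM elsewhere and Ddx3y at 0.0625 CPM against 66.3 to 114 CPM. The same library was highest in 12 dendritic cell genes, which summed to 373 and 223 CPM for WT against 1630 and 388 CPM for KO, with Cd74 at 829 CPM there and at 2.54 to 55.4 CPM elsewhere. Of 9 monocyte and macrophage genes at 5 CPM or more in WT, 5 had both KO values above both WT values and 1 had them below. All genes at that level had them above in 11.9% and below in 25.6%. The monocyte and macrophage list summed to 2368 and 1426 CPM for WT against 2434 and 1965 CPM for KO. A list of 14 neutrophil genes summed to 1558 and 6733 CPM for WT against 23664 and 28795 CPM for KO. Of its 10 genes at 5 CPM or more in WT, 8 had both KO values above both WT values, beside the same 11.9%. The part of these differences in the lower levels of the 43 genes was not tested, and in bulk RNA fewer cells that express a gene and less RNA per cell cannot be told apart. None of the 43 genes is in the 12 marker lists for other cell types, stress and sex that were consulted.

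Of the 43 genes 40 code for proteins and 3 are long noncoding RNAs. They summed to 1631 and 1520 CPM for WT against 189 and 302 CPM for KO. The ratio of the lower WT to the higher KO value ran from 3.13 to 15.0 with a median of 4.01, and 10 genes had a ratio of at least 5. The median log2 fold change of KO against WT over the 43 genes was -2.55, beside -0.0043 for all 12623 genes tested. CPM does not correct for transcript length, so levels are compared between libraries and not between genes.

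**Figure D1:**
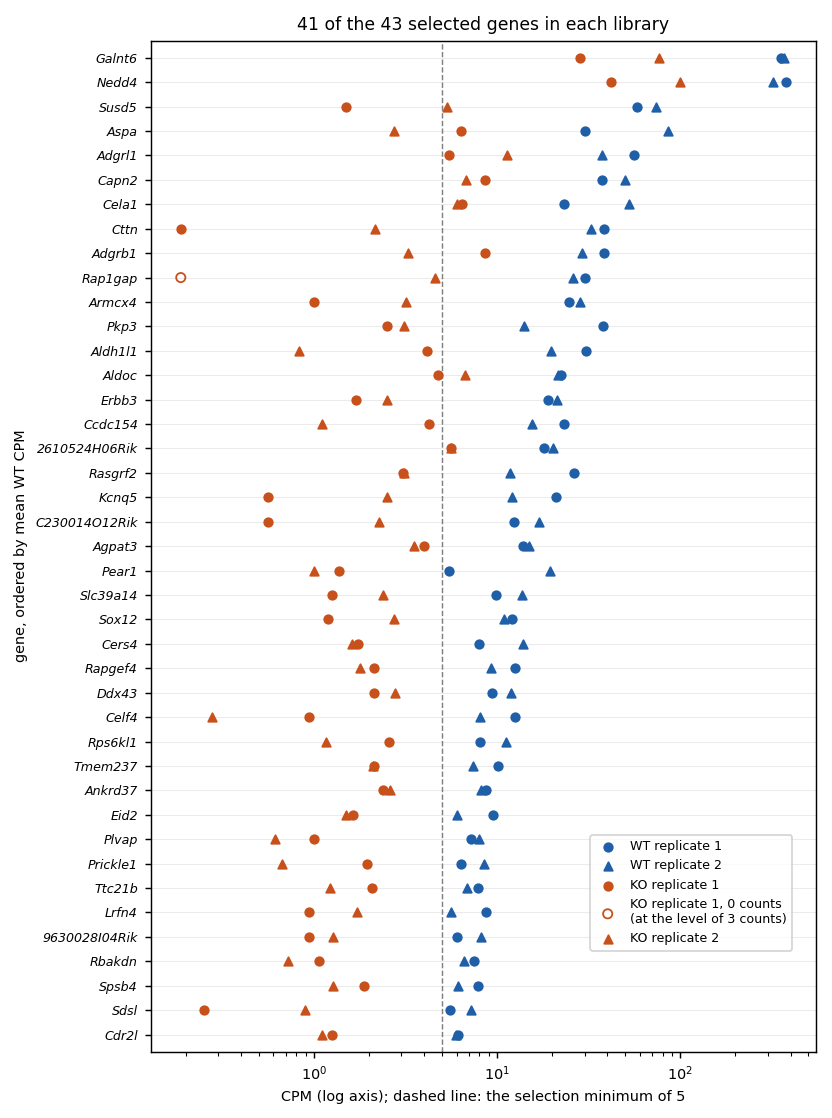
Each row is 1 of 41 of the 43 selected genes and each symbol its CPM in 1 library on a log axis, blue for WT and orange for KO, circles for replicate 1 and triangles for replicate 2. In each row both KO symbols lie left of both WT symbols, as the selection requires, and Rap1gap, with 0 counts in KO replicate 1, is drawn at the level of 3 counts.

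The promoters of these genes are shown first because the sequence was not used to choose them. The RefSeq table of windows from 250 bases before to 50 bases after an annotated start (build GRCm38.p6) held 44 windows for 31 of the 43 genes. A gene can have several starts: 10 of the 44 windows were laid around a start over 1 kb inside the gene, and 7 of the 12 windows with the motif given next are among these 10. The letters TGGGAA, a core of Ikaros family sites, were searched on both strands and found in 12 of the 44 windows (27.3%), beside 22.8% of 9719 windows of genes with a lower WT value of at least 5 CPM and 25.6% of all 32851 windows. The shorter core GGGAA, contained in the first motif, was in 68.2%, 64.7% and 62.7% of the same sets. Windows of 1 gene are not independent, and overlapping windows of Rap1gap hold the same TGGGAA. By gene, 9 of the 31 genes had TGGGAA in a window, beside 2000 of 7637 genes at 5 CPM or more in WT. A window without these letters says nothing on binding elsewhere. The median GC content was 64.2% in the 44 windows and 61.0% in the windows of genes at that level, with a median of 22 and 21 CpG pairs.

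The windows below stand for what was seen: a pair of TGGGAA motifs in Aldoc and single ones in Aspa, Galnt6 and Ddx43. No TGGGAA lies in the outer window of Galnt6, in Cela1, the neighbour of Galnt6, or in Susd5. Susd5 is 1 of the 2 genes with a ratio above 10. The shorter core GGGAA occurs 1 time in the outer Galnt6 window, 1 time in Cela1 and 2 times in Susd5. The Aldoc, Aspa and inner Galnt6 windows are laid around starts 1.125, 2.239 and 8.899 kb inside these genes, and the other 4 windows around the outermost start of their gene. The outermost window of Aldoc, not printed, holds 1 TGGGAA. Capitals mark TGGGAA, or TTCCCA where the motif lies on the opposite strand. Counted from the start that each window is laid around, the first motif bases lie at -17 and 18 in Aldoc, at -17 in Aspa, at -160 in the inner Galnt6 window and at -119 in Ddx43.
Aldoc, chr11:78323948-78324247, plus strand: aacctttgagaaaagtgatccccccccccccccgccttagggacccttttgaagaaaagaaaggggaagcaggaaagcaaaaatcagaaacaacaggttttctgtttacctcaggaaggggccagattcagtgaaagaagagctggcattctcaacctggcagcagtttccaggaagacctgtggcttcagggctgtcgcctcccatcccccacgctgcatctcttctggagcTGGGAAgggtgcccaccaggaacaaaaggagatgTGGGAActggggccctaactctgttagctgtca
Aspa, chr11:73324588-73324887, minus strand: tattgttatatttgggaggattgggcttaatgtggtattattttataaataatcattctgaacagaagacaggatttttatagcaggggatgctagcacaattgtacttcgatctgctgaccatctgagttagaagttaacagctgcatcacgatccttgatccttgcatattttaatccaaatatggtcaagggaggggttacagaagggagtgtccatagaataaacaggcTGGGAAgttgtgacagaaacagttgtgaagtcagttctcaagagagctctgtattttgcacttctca
Galnt6 inner start, chr15:100720428-100720727, minus strand: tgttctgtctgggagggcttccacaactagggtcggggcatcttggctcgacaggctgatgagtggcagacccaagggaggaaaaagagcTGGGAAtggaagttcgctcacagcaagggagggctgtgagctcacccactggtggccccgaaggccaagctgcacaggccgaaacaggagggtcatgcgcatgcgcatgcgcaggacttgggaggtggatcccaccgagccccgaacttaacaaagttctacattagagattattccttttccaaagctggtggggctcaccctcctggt
Ddx43, chr9:78395527-78395826, plus strand: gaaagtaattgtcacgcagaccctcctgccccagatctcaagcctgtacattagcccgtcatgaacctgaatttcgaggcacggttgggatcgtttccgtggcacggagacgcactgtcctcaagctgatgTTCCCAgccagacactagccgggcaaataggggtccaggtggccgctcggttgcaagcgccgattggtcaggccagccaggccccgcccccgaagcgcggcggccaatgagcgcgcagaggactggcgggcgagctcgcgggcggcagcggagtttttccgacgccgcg
Galnt6 outer start, chr15:100729327-100729626, minus strand: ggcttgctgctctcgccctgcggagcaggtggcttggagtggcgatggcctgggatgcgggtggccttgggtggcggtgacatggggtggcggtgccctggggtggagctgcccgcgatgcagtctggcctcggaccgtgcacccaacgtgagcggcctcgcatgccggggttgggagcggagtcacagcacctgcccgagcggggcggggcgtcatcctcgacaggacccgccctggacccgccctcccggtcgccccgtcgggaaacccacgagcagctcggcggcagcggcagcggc
Cela1, chr15:100687871-100688170, minus strand: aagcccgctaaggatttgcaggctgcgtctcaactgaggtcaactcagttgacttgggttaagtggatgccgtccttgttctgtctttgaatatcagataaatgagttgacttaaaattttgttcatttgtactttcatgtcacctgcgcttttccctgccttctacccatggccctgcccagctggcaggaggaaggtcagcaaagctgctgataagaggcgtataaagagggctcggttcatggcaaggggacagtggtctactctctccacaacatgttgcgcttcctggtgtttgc
Susd5, chr9:114057104-114057403, plus strand: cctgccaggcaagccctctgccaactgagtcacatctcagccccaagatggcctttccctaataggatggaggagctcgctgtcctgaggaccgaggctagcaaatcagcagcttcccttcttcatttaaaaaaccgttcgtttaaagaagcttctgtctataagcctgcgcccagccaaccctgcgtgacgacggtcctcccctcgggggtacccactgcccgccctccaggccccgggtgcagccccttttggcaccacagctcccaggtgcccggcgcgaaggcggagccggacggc

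The Aspa window stands out by its composition: it holds 2 CpG pairs and 39.0% GC, while the Ddx43 window holds 30 CpG pairs and 64.0% GC. Windows with under 5 CpG pairs made up 9.09% of the 44, close to the 8.16% among genes at 5 CPM or more in WT.

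Receptors and other surface proteins form the first role. Erbb3 (chromosome 10, 128567523 to 128589635) encodes a neuregulin receptor that has little kinase activity of its own and signals with a partner of its family. It stood at 19.0 and 21.3 CPM for WT against 1.69 and 2.50 CPM for KO (log2 fold change -3.19, SE 0.44, n = 2 per group). The replicates of each genotype lay close together, far from the other genotype. Its usual partners were close to absent: Erbb2 and Erbb4 had 0 counts in each library, which allows at most 0.187 CPM, and Egfr had 1 count in total. Among the ligands that bind ERBB3 or ERBB4, Nrg1 had 7.62 and 4.22 CPM for WT against 14.9 and 12.4 CPM for KO, Nrg2 54.3 and 30.6 CPM for WT against 45.7 and 54.3 CPM for KO, and Nrg4 152 and 134 CPM for WT against 170 and 179 CPM for KO, while Nrg3 had 0 counts. Both KO values lay above both WT values in Nrg1 and Nrg4 and not in Nrg2. Of the other ligands Egf stood at 6.07 and 5.50 CPM for WT against 4.50 and 4.44 CPM for KO, and Areg, Ereg, Btc and Tgfa reached at most 0.107 CPM. Of 9 tested genes in a list of 17 ERBB receptors, ligands and adaptors, edgeR called 0 and DESeq2 called none besides Erbb3, whose call rests on the contrast that selected it. Over all genes edgeR called 0% in either direction (0 of 12623, with 968 at an unadjusted p under 0.05, 444 of them lower in KO) and DESeq2 1.07% as lower and 1.56% as higher.

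Susd5 (chromosome 9, 114057354 to 114098733), a membrane protein with a sushi domain, stood at 58.1 and 73.3 CPM for WT against 1.499 and 5.33 CPM for KO (log2 fold change -4.17, SE 0.67). Both KO libraries retained under 10% of the lower WT value. The adhesion G protein receptor Adgrl1, or latrophilin 1, had 55.9 and 37.5 CPM for WT against 5.44 and 11.4 CPM for KO. Adgrb1, also called BAI1, a receptor of phagocytes for phosphatidylserine on dying cells, had 38.2 and 29.1 CPM for WT against 8.56 and 3.27 CPM for KO. The KO libraries were ordered in opposite ways in these receptors, with replicate 2 above replicate 1 in Adgrl1 and below it in Adgrb1.

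Plvap, which forms the diaphragms of endothelial pores, was at 7.21 and 7.96 CPM for WT against 0.9996 and 0.611 CPM for KO. Pear1, a receptor of platelets and endothelium, had 5.44 and 19.3 CPM for WT against 1.37 and 0.999 CPM for KO, and its WT values differed by 3.55-fold, the widest gap in the set. Both genes are known from endothelial cells, so the markers of stroma and endothelium were set beside them. The 15 stromal and endothelial markers summed to 365 and 316 CPM for WT against 92.0 and 180 CPM for KO. Pdgfrb and Pecam1, the latter also made by blood cells, carried most of the sum. The 2 list genes at 5 CPM or more in WT were both lower in both KO libraries, beside 25.6% of all genes. DESeq2 called 1 list gene as lower (Pdgfrb), beside 1.07% of all genes, and edgeR called 0. Of the same list, Cdh5, Kdr, Emcn, Tie1 and Col1a2 were at or under 0.333 CPM in all 4 libraries, and Kitl and Col3a1 had 0 counts. Vwf, made by endothelium and megakaryocytes, had 1.14 and 11.6 CPM for WT against 12.5 and 16.9 CPM for KO. The 15 megakaryocyte markers summed to 63.3 and 167 CPM for WT against 46.5 and 64.0 CPM for KO, without a common direction. Of these Pf4, Ppbp, Gp6 and Treml1 were at or under 0.125 CPM throughout, while Itga2b had 29.7 and 113 CPM for WT against 2.87 and 20.1 CPM for KO and Itgb3 25.9 and 32.0 CPM for WT against 16.7 and 12.3 CPM for KO. Like Vwf, Gp9 and Gp1bb had both KO values above both WT values, at 1.45 and 3.37 CPM for WT against 4.87 and 5.38 CPM for KO in Gp9. The part of these cells in the levels of Plvap and Pear1 was not tested.

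Ion transport was represented by a potassium channel and a metal importer. Kcnq5, a voltage-gated potassium channel, had 20.8 and 12.02 CPM for WT against 0.562 and 2.50 CPM for KO. It was the only one of 5 Kcnq genes at 5 CPM or more in both WT libraries. Slc39a14, the ZIP14 importer of zinc, iron and manganese, had 9.85 and 13.6 CPM for WT against 1.25 and 2.39 CPM for KO. Among 9 zinc transporters of that family at this level in WT, 4 had both KO values below both WT values, 3 had them above and 2 overlapped. Such separation was seen in 25.6% of the 9790 genes in the lower and 11.9% in the higher direction.

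Genes of the actin cytoskeleton and of cell contacts form the next role. Cttn (chromosome 7, 144435724 to 144471560) encodes cortactin, which binds branched actin filaments. It stood at 38.3 and 32.4 CPM for WT against 0.187 and 2.16 CPM for KO, from 738, 607, 3 and 39 counts (log2 fold change -4.79, SE 1.03), and its ratio of 15.0 was the highest of the set. The transcript was thus nearly absent from KO replicate 1 and low in KO replicate 2. Hcls1, the cortactin relative of blood cells, was at 374 and 264 CPM for WT against 311 and 276 CPM for KO, with overlapping groups.

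Pkp3, a plakophilin of desmosomes, had 37.9 and 14.002 CPM for WT against 2.50 and 3.11 CPM for KO. The WT libraries differed by 2.70-fold in Pkp3, and both KO libraries lay below them. Prickle1, of planar cell polarity, had 6.38 and 8.44 CPM for WT against 1.94 and 0.666 CPM for KO. Lrfn4, an adhesion protein known from synapses, had 8.66 and 5.61 CPM for WT against 0.937 and 1.72 CPM for KO. The list of 46 integrin and adhesion genes held none of the 43 genes. Of 39 tested, DESeq2 called 1 as lower (Icam1) and 1 as higher (Vcam1), beside 1.07% and 1.56% of all genes, while edgeR called 0. Of 30 list genes at 5 CPM or more in WT, 9 were lower in both KO libraries and 5 higher. The shares over all genes at that level were 25.6% and 11.9%.

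Regulators of the small GTPases RAP and RAS were another role. RAP1 switches integrins on in blood cells, and its activity is raised by exchange factors and ended by GTPase-activating proteins. Rap1gap (chromosome 4, 137664711 to 137729861), which ends RAP1 signalling, had 30.1 and 26.1 CPM in WT, 0 counts in KO replicate 1, which allows up to 0.187 CPM, and 4.61 CPM from 83 counts in KO replicate 2. Its log2 fold change was -3.49 with the largest SE of the set, 1.58. Rapgef4, the cAMP-activated exchange factor EPAC2, had 12.5 and 9.25 CPM for WT against 2.12 and 1.78 CPM for KO. Rasgrf2, a calcium-responsive exchange factor of RAS and RAC, had 26.3 and 11.7 CPM for WT against 3.06 and 3.11 CPM for KO. In WT, 19 RAP GTPases and regulators of RAP or RAS, gathered by symbol after the 43 genes were known, had 5 CPM or more. Of these 5 were lower in both KO libraries, 1 was higher and 13 overlapped. The 5 include the 3 genes above, which are lower by the rule, so the count is partly fixed. Among all genes at that level 25.6% were lower and 11.9% higher. Rap1b stood at 305 and 273 CPM for WT against 438 and 302 CPM for KO, and Rapgef3, which encodes EPAC1, at 31.6 and 30.9 CPM for WT against 34.1 and 32.2 CPM for KO.

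**Figure D2:**
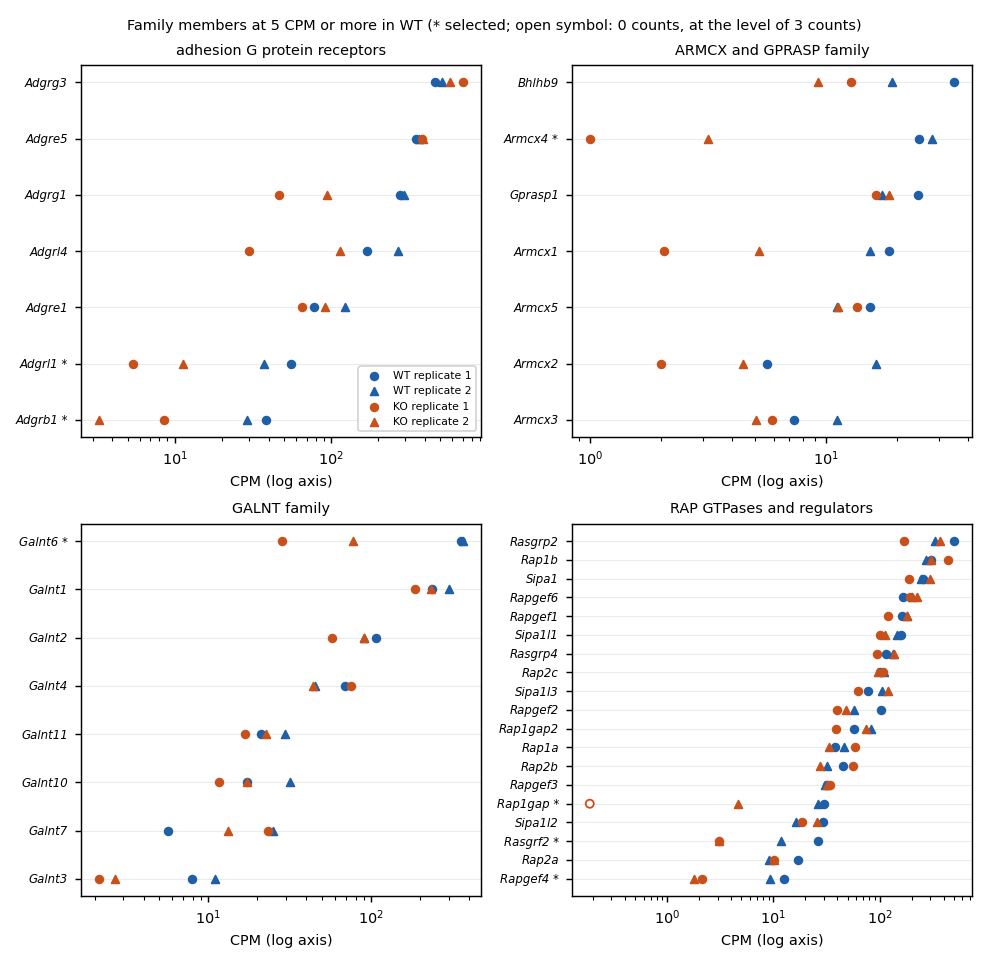
CPM in each library on a log axis for genes of 4 families that had at least 5 CPM in both WT libraries, blue for WT and orange for KO, circles for replicate 1 and triangles for replicate 2; asterisks mark selected genes and the open circle is Rap1gap at 0 counts, drawn at the level of 3 counts. Adgrl1, Adgrb1, Adgrg1 and Adgrl4 have both KO symbols left of both WT symbols, while Adgrg3 and Adgre5 have them to the right.

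Protein modification and turnover included the most deeply counted genes of the set. Galnt6 (chromosome 15, 100689915 to 100729376) encodes a Golgi transferase that starts mucin-type O-glycans. It had 356 and 366 CPM for WT against 28.5 and 76.8 CPM for KO (log2 fold change -2.69, SE 0.53). The WT replicates were within 1.03-fold, whereas the KO replicates were 2.69-fold apart. Of 8 family members at 5 CPM or more in WT, Galnt6 included, 3 were lower in both KO libraries and 5 overlapped. The shares over all genes at that level were 25.6% lower and 11.9% higher. Galnt3, at 7.93 and 10.96 CPM for WT against 2.12 and 2.66 CPM for KO, missed the selection with a ratio of 2.98.

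Nedd4 (chromosome 9, 72662331 to 72749851), a HECT ubiquitin ligase that marks membrane proteins for turnover, had 378 and 320 CPM for WT against 41.9 and 99.7 CPM for KO (log2 fold change -2.21, SE 0.47). Its closest relative Nedd4l was at 40.9 and 49.7 CPM for WT against 26.4 and 37.5 CPM for KO, and Itch at 108 and 134 CPM for WT against 151 and 145 CPM for KO. Of 7 ligases of this family at that level, Nedd4 included, 2 were lower in both KO libraries, 3 higher and 2 overlapping. All genes at that level were lower in 25.6% and higher in 11.9%. Capn2 (chromosome 1, 182467253 to 182517610) encodes the large subunit of m-calpain, a calcium-dependent protease, and had 37.3 and 49.6 CPM for WT against 8.62 and 6.77 CPM for KO (log2 fold change -2.44, SE 0.31, the smallest SE of the set). The parallel large subunit Capn1 had 210 and 224 CPM for WT against 130 and 239 CPM for KO, and the shared small subunit Capns1 had 554 and 548 CPM for WT against 642 and 524 CPM for KO. Of the other 5 calpains at 5 CPM or more in WT none separated by genotype, beside the 25.6% lower and 11.9% higher among all genes at that level. In the list of 16 calpain system genes, 12 of them tested, edgeR called 0 and DESeq2 called none besides the selected Capn2.

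Spsb4, a SOCS box adaptor for ubiquitin ligases, had 7.83 and 6.09 CPM for WT against 1.87 and 1.28 CPM for KO. Cela1, a pancreatic-type elastase, had 23.1 and 52.2 CPM for WT against 6.44 and 6.05 CPM for KO, while Elane, the neutrophil elastase, stood at 1185 and 737 CPM for WT against 10432 and 4644 CPM for KO. The elastases named here were therefore ordered in opposite ways by genotype.

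Enzymes of lipid, amino acid and one-carbon metabolism made up a further role. Cers4, a ceramide synthase, had 7.93 and 13.8 CPM for WT against 1.75 and 1.61 CPM for KO, and of its relatives at 5 CPM or more in WT Cers2 was lower in both KO libraries (288 and 313 CPM for WT against 256 and 266 CPM for KO), Cers6 higher (27.7 and 23.1 CPM for WT against 30.7 and 58.0 CPM for KO) and Cers5 overlapping. Agpat3, an acyltransferase of phospholipid synthesis, had 13.9 and 14.9 CPM for WT against 4.00 and 3.50 CPM for KO, and of 8 family members at that level, itself included, 2 were lower in both KO libraries, 2 higher (Agpat1 and Agpat2) and 4 overlapping. Agpat4, the other lower one, had 6.27 and 11.97 CPM for WT against 1.81 and 4.50 CPM for KO. Over all genes at 5 CPM or more in WT, 25.6% were lower in both KO libraries and 11.9% higher.

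Aldh1l1, which oxidises a folate-bound formyl group, had 30.6 and 19.7 CPM for WT against 4.12 and 0.833 CPM for KO. Aspa, which cleaves N-acetylaspartate, had 30.2 and 85.4 CPM for WT against 6.31 and 2.72 CPM for KO. In both genes KO replicate 2 was the lower of the KO libraries, the opposite of Galnt6 and Nedd4. Sdsl, a relative of serine dehydratase, had 5.50 and 7.21 CPM for WT against 0.250 and 0.888 CPM for KO.

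Aldoc, an aldolase of glycolysis, had 22.3 and 21.4 CPM for WT against 4.75 and 6.66 CPM for KO, and Aldoa, the main aldolase here by counts, 1494 and 1275 CPM for WT against 999.7 and 933 CPM for KO. Ankrd37, a gene induced by hypoxia, had 8.71 and 8.18 CPM for WT against 2.37 and 2.61 CPM for KO. Both genes are in the list of 33 hypoxia and glycolysis genes, of which 30 were tested. A log2 fold change below 0 was seen in 21 of these, and their median was -0.19, beside -0.0043 for all genes tested. At 5 CPM or more in WT, 16 of 30 list genes were lower in both KO libraries and 3 higher, beside 25.6% and 11.9% of all genes. These counts include the selected Aldoc and Ankrd37, lower by the rule. In the list edgeR called 0, and DESeq2 called, besides the selected Aldoc and Ankrd37, 1 as lower (Egln3) and 1 as higher (Ndrg1). Over all genes DESeq2 called 1.07% as lower and 1.56% as higher. Ankrd37 overlaps Ufsp2 on the opposite strand, and the strand setting of the counting is not given, so reads of the pair cannot be told apart. In all, 7 of the 43 genes overlap another counted gene, among them Plvap with Gtpbp3, Lrfn4 with Pcx and Aspa with Spata22. Ufsp2 stood at 61.7 and 68.1 CPM for WT against 50.5 and 49.5 CPM for KO.

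Nuclear and RNA-binding proteins were few. Sox12, a SOXC transcription factor, had 12.1 and 10.9 CPM for WT against 1.19 and 2.72 CPM for KO, and Sox4, of the same class, 16.4 and 7.38 CPM for WT against 6.87 and 39.0 CPM for KO. Sox4 did not separate by genotype. Celf4, an RNA-binding protein known from neurons, had 12.5 and 8.02 CPM for WT against 0.937 and 0.278 CPM for KO, while Celf1 and Celf2 stood at 110 CPM or more in all libraries. Ddx43, a helicase known from germ cells, had 9.38 and 11.9 CPM for WT against 2.12 and 2.78 CPM for KO. Eid2, an inhibitor of the coactivator p300, had 9.54 and 6.04 CPM for WT against 1.62 and 1.499 CPM for KO. Of the 37 stem and progenitor regulators, 29 of them tested, none was selected. DESeq2 called 1 as lower (Gata2) and 3 as higher (Bcl11a, Prdm16 and Satb1), beside 1.07% and 1.56% of all genes, while edgeR called 0. Of 25 list genes at 5 CPM or more in WT, 12 were lower in both KO libraries and 3 higher. Over all genes at that level the shares were 25.6% and 11.9%.

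The Notch, Wnt, TGF-beta with BMP, and antigen receptor lists, of 22, 33, 30 and 41 genes, held none of the 43 either. In the same order 13, 23, 20 and 37 of their genes were tested. DESeq2 called 1 as lower (Lat2) and 2 as higher (Bmpr2 and Id2), beside 1.07% and 1.56% of all genes. In each of these lists edgeR called 0.

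Tmem237 and Ttc21b encode proteins of the primary cilium. Tmem237 had 10.1 and 7.43 CPM for WT against 2.12 and 2.11 CPM for KO, and Ttc21b had 7.88 and 6.84 CPM for WT against 2.06 and 1.22 CPM for KO. Rps6kl1, a kinase-like gene, had 8.09 and 11.2 CPM for WT against 2.56 and 1.17 CPM for KO, and Cdr2l, a relative of a neuronal autoantigen, had 6.12 and 5.99 CPM for WT against 1.25 and 1.11 CPM for KO. Each of these 4 genes stood below 3 CPM in both KO libraries. Among genes without an assigned role, Ccdc154 had 23.3 and 15.5 CPM for WT against 4.25 and 1.11 CPM for KO, and 2610524H06Rik had 18.04 and 20.2 CPM for WT against 5.62 and 5.61 CPM for KO. The noncoding RNAs were C230014O12Rik, with 12.3 and 17.0 CPM for WT against 0.562 and 2.28 CPM for KO, 9630028I04Rik, with 6.01 and 8.18 CPM for WT against 0.937 and 1.28 CPM for KO, and Rbakdn, with 7.47 and 6.63 CPM for WT against 1.06 and 0.722 CPM for KO. The KO libraries of Ccdc154 differed by more than 3-fold, and those of 2610524H06Rik hardly at all.

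Armcx4 (chromosome X, 134685650 to 134697775) was the only selected gene on a sex chromosome, and it belongs to a cluster of armadillo-repeat genes on X. It had 24.7 and 28.2 CPM for WT against 0.9996 and 3.16 CPM for KO. The lowest level was in KO replicate 1, the library with Xist, and the part of sex in the level was not tested. Of 7 genes of the ARMCX and GPRASP family at 5 CPM or more in WT, 5 were lower in both KO libraries and 2 overlapped. Armcx1, 20.1 kb from Armcx4, had 18.5 and 15.3 CPM for WT against 2.06 and 5.22 CPM for KO. In the same way, 4 of 7 adhesion G protein receptors at that level were lower in both KO libraries and 2 were higher: Adgrg1 had 276 and 295 CPM for WT against 46.9 and 94.6 CPM for KO, and Adgrl4 170 and 269 CPM for WT against 29.9 and 115 CPM for KO. These families were gathered after the 43 genes were known. Their counts include the selected Armcx4, Adgrl1 and Adgrb1, which are lower by the rule. Over all genes at that level, both KO values lay below both WT values in 25.6% and above them in 11.9%.

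The genes were spread over the genome, with members on 19 chromosomes and at most 4 on any of them, and 3 on chromosome 1, where Ikzf2 lies. Among them 1 pair lay within 100 kb: Cela1 (chromosome 15, 100674422 to 100687920) and Galnt6 are on the same strand and 2.00 kb apart, with Cela1 downstream. In WT, replicate 2 was above replicate 1 in both genes, 2.26-fold in Cela1 and 1.03-fold in Galnt6. In KO, Galnt6 was 2.69-fold higher in replicate 2. Cela1 was nearly equal in the KO libraries, with replicate 2 at 0.940 times replicate 1 (103 and 109 counts in replicates 1 and 2).

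Within 100 kb of a selected gene lay 131 other genes at 5 CPM or more in WT. Of these 51 (38.9%) had both KO values below both WT values and 10 (7.63%) had them above, beside 25.3% and 11.9% of all such genes with the selected ones left out. The count is a description, since neighbours of 1 gene share a location. Pbx3, a cofactor of HOX proteins 63.7 kb from C230014O12Rik, had 286 and 157 CPM for WT against 21.2 and 136 CPM for KO. Near Erbb3, Suox, the sulfite oxidase gene, had 9.96 and 12.1 CPM for WT against 2.25 and 4.72 CPM for KO, and Myl6b, a myosin light chain gene, had 10.7 and 13.6 CPM for WT against 4.12 and 5.55 CPM for KO. Of the 10 higher neighbours, Slc8b1, near Sdsl, had 191 and 263 CPM for WT against 412 and 359 CPM for KO. Pxylp1, near Spsb4, had 154 and 276 CPM for WT against 321 and 398 CPM for KO.

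**Figure D3:**
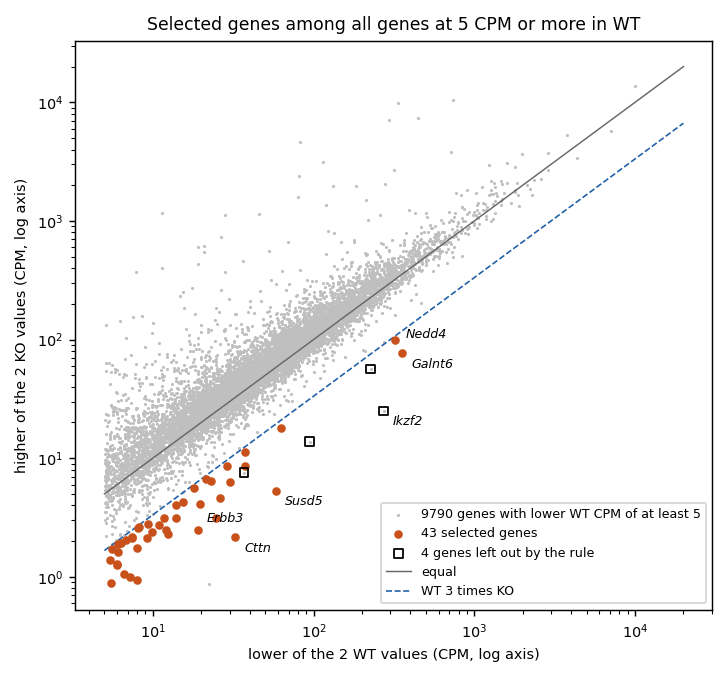
For each gene with at least 5 CPM in both WT libraries, the lower WT value is plotted against the higher KO value, both in CPM on log axes, with selected genes in orange, the 4 left-out genes as squares and lines at equality and at 3-fold. The 43 genes lie below the dashed line by the rule, at ratios from 3.13 to 15.0, and the 1 further gene below it is Pcdh7, whose WT values differed by 19.9-fold.

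At the edges of the selection the values were close to those of genes outside it. Just inside the ratio limit were Ankrd37 (3.13), Rps6kl1 (3.16) and Nedd4 (3.21), and just outside it Gpr179 (2.99), Galnt3 (2.98) and Snap47 (2.97). At the level limit Pear1, Sdsl and Lrfn4 had lower WT values of 5.44, 5.50 and 5.61 CPM, and Rnd2, Espnl and Afp missed it with 4.76, 4.33 and 4.01 CPM.

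The selection did not compare the KO libraries with each other. KO replicate 2 was above replicate 1 in 21 of the 43 genes (48.8%), beside 43.5% of genes at 5 CPM or more in WT. Gaps of more than 2-fold were more common: 11 genes (25.6%) were over 2-fold higher in replicate 2, beside 5.62% of genes at that level, and 7 were over 2-fold higher in replicate 1. Many of these rest on few counts, with a median of 31 and 43 in KO replicates 1 and 2. Among 10 genes with at least 50 counts in both, 3 were over 2-fold higher in replicate 2 (Galnt6 2.69-fold, Nedd4 2.38-fold and Adgrl1 2.09-fold) and 1 in replicate 1. Ikzf2 itself was 2.28-fold and Chd3 3.32-fold higher in replicate 2, whereas Tespa1 was 1.01-fold.

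**Figure D4:**
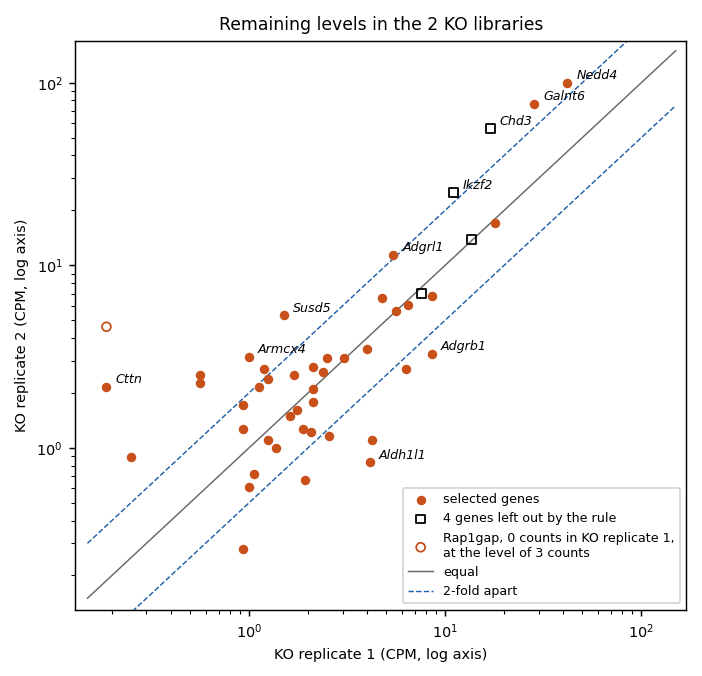
CPM in KO replicate 1 against KO replicate 2 on log axes for the 43 selected genes (orange) and the 4 left-out genes (squares), with lines at equality and at 2-fold and Rap1gap (open circle, 0 counts in KO replicate 1) at the level of 3 counts. Nedd4, Galnt6, Ikzf2 and Chd3 lie above the upper 2-fold line, and Adgrb1 and Aldh1l1 lie below the lower one.

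In WT, the replicates were within 1.5-fold in 30 genes (69.8%), beside 85.2% of genes at 5 CPM or more, and over 2-fold apart in 6. Within replicate number 1 the median ratio of WT to KO was 7.03, and within replicate number 2 it was 5.66. Without KO replicate 1, the library that stood apart, the median log2 fold change was -2.53 and 79 genes met the rule. Neither value tests the selection, since the rule already bound KO replicate 2 and leaving out a library can only let genes in.

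Of the 43 genes, all of which were tested, edgeR's quasi-likelihood test called 0 at an adjusted p of 0.05 and DESeq2 called 42. These counts use the contrast that chose the genes and are set beside the shares over all genes, 0% and 1.07%. The log2 fold changes ran from -1.69 (Ankrd37) to -4.79 (Cttn), with SEs from 0.31 to 1.58.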

How the data were processed

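RNA-seq was measured in 4 libraries, 2 Ikzf2 WT and 2 Ikzf2 KO, grouped by the sample titles. Each deposited file gives the raw read counts of 1 library by gene symbol. File names number the libraries differently from the titles, whose numbers are used here. The submitters' processing notes name mm10 as the build and list, without roles, MACS2, Picard, HTSeq, STAR 2.3.0 and Bowtie2 2.2.5. The sources used here state neither the annotation nor the strand setting. The 5 closing rows of unassigned reads, 69.3% to 72.4% of each file's total, were left out. CPM was each count times 1000000 over the library's gene total, without TMM.

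In R 4.3.3, edgeR 4.0.16 (TMM, default filterByExpr, robust quasi-likelihood F-test, Benjamini-Hochberg over 12623 genes) gave log2 fold changes, and each SE is its absolute value divided by the root of F. Alternatives were voom in limma 3.58.1 and the Wald test of DESeq2 1.42.0. The edgeR script was tested on simulated data. The members, lists, families and tests were chosen with earlier results of these data known. Genes named in full were, by rule, the 20 with the highest mean WT CPM, the 20 with the largest ratio, list members and those next to the limits; after the values were seen other selected genes were added, and relatives outside the fixed lists and neighbours were chosen. GGGAA, the added call rules and the families were chosen after seeing the data. All 43 symbols matched the RefSeq table of GRCm38.p6, the assembly mm10 names. Single values of 2 of the 43 genes, and 1 gene list, are not reported here.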

Additional observations from a re-analysis of the deposited data

How the results depend on the processing

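The number of genes that met the selection was 43, and it was 42 with TMM library sizes (Ankrd37 and 2610524H06Rik lost, 1 gene added), 43 without the 10 most abundant genes, 49 with a lower WT limit of 3 CPM and 44 with no limit on WT agreement. It was 23 with a lower WT limit of 10 CPM, 115 at a ratio of 2 and 22 at a ratio of 4. Applied with 1 library left out, the rule gave 79 to 201 genes (79 without KO replicate 1, 162 without KO replicate 2, 163 without WT replicate 1 and 201 without WT replicate 2), each including the 43 by construction.

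The count of genes called lower in KO was 0 by edgeR and voom, 143 by DESeq2, 1 with no low-count filter and 3 with a replicate block, none of these 3 among the 43. With 1 library left out edgeR called 0 to 56 genes (30 without WT replicate 1, of which 4 were among the 43, and 56 without WT replicate 2, of which 6 were), where the single WT library is taken to have the spread of the KO pair. The replicate numbers share only a number: the replicate 1 minus 2 differences of WT and KO correlated across genes at 0.20, and genes are not independent. The block gave a median log2 fold change of -2.58 over the 43 genes. Over the alternatives the median ran from -2.70 without KO replicate 2 to -2.53 without KO replicate 1, a range that shows no stability, since the genes were selected on these values. At 3 counts per library, levels under 0.187 CPM were not detectable in KO replicate 1.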
